A study of Mus musculus with 18 samples.

Results

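Oligodendrocyte lineage transcripts were followed in RNA sequencing counts of microglia from the mouse striatum. The members are 35 of the 55536 genes in the count table. They were chosen by symbol, with Ensembl identifiers matched to GENCODE M21. No measured value was part of the rule, but earlier results of these data were known when they were chosen. They were grouped as 30 genes of oligodendrocytes and 5 genes of oligodendrocyte precursors (Pdgfra, Cspg4, Gpr17, Tnr and C1ql1). The 30 were listed as 17 under myelin proteins, 6 under lipids, cofactors and iron, 2 under receptors and 5 under transcription factors. These names are headings, and which cells each transcript came from was not determined. The study asked what deletion of Tyrobp, an adaptor protein of myeloid receptors, does to microglia in a mouse model of Huntington's disease. The 18 samples come from adult C57BL/6 mice of 4 genotypes, with 5 WT, 3 Tyrobp-KO, 5 Q175 and 5 Q175;Tyrobp-KO samples. Whether each sample is a single mouse is not settled, as the labels and the methods differ on the striata per sample. Q175 mice carry 1 copy of a knock-in that places a human HTT exon with an expanded CAG repeat into mouse Htt, not limited to any cell type, and the knockout of Tyrobp is constitutive. Cell pellets of dissociated striata left after a Percoll step, which removes much of the myelin, were bound to beads coated with antibody to CD11b, an integrin chain carried by microglia and other myeloid cells. The cells were therefore enriched for microglia and not for the cells that make the transcripts described here.

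Oligodendrocytes wrap axons in myelin, a stack of membranes rich in cholesterol and galactolipids that is held together by proteins such as MBP. They arise from precursor cells that carry the receptor PDGFRA and the proteoglycan CSPG4 and that persist in the adult striatum. A stage of committed precursors marked by the receptor GPR17 lies between them. SOX10, OLIG1 and OLIG2 act along the whole lineage, whereas MYRF switches on the genes of myelin. The mRNA of Mbp is known to be carried into the processes of the cell and translated at the myelin sheath.

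Total counts were between 11260410 and 29771983 per sample. Levels are given as CPM, the counts of a gene relative to all counts of its library, after TMM scaling over the 18 samples. Tyrobp, the deleted gene, had 196 to 475 CPM in WT and 213 to 368 CPM in Q175, against 17.5 to 21.3 CPM in Tyrobp-KO and 9.89 to 14.6 CPM in Q175;Tyrobp-KO. The 20 microglia markers summed to 19601 to 35914 CPM, with none at 0 in any sample. Females made up 1 of 5 WT, 2 of 3 Tyrobp-KO, 4 of 5 Q175 and 2 of 5 Q175;Tyrobp-KO samples, so sex and genotype were partly tied, most of all in Q175 versus WT. The 15 astrocyte markers summed to 821 to 1408 CPM in WT, 839 to 5003 in Tyrobp-KO, 1582 to 7153 in Q175 and 844 to 4080 in Q175;Tyrobp-KO, with none at 0 in any sample. The 12 markers of choroid plexus and ependyma summed to 1347, 1488 and 424 CPM in Q175 replicates 3 and 4 and Q175;Tyrobp-KO replicate 11, against 5.57 to 95.8 CPM in the other 15 samples, where up to 5 of them were at 0.

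All 35 members were counted in every sample. Together they summed to 2166 to 5997 CPM, which was 7.47 to 26.8% of the summed level of the microglia markers in the same sample. The sum was 3391 ± 830 CPM (SD, n = 5) in WT, 3912 ± 1737 (n = 3) in Tyrobp-KO, 5187 ± 1043 (n = 5) in Q175 and 4222 ± 1180 (n = 5) in Q175;Tyrobp-KO, and the ranges of all 4 groups overlapped. In such samples, more cells of a type and more RNA per cell cannot be told apart. Per kilobase of exonic length, Mbp had the highest mean level over the 18 samples, 128 CPM per kb, with a range of 64.6 to 270.4. Mobp, which encodes another basic protein of myelin, followed at 68.1 CPM per kb, and Evi2a (a gene inside an intron of Nf1), Cnp (a phosphodiesterase of myelin), Qdpr (an enzyme that regenerates tetrahydrobiopterin), Enpp2, Hapln2 and Cldn11 lay between 65.5 and 52.1 CPM per kb. Neighbours in this order did not differ beyond their spread, since the ranges of each pair overlapped. The 5 precursor genes were the lowest of the 35, with means from 1.29 CPM per kb for Gpr17 to 2.05 for Tnr, an extracellular matrix protein. The lowest of the other members, Aspa, an enzyme that breaks down N-acetylaspartate, had 3.39 CPM per kb. C1ql1, a secreted protein of the precursors, had as few as 4 reads in a sample, so its values carry the largest counting error of the list.

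**Figure D1:**
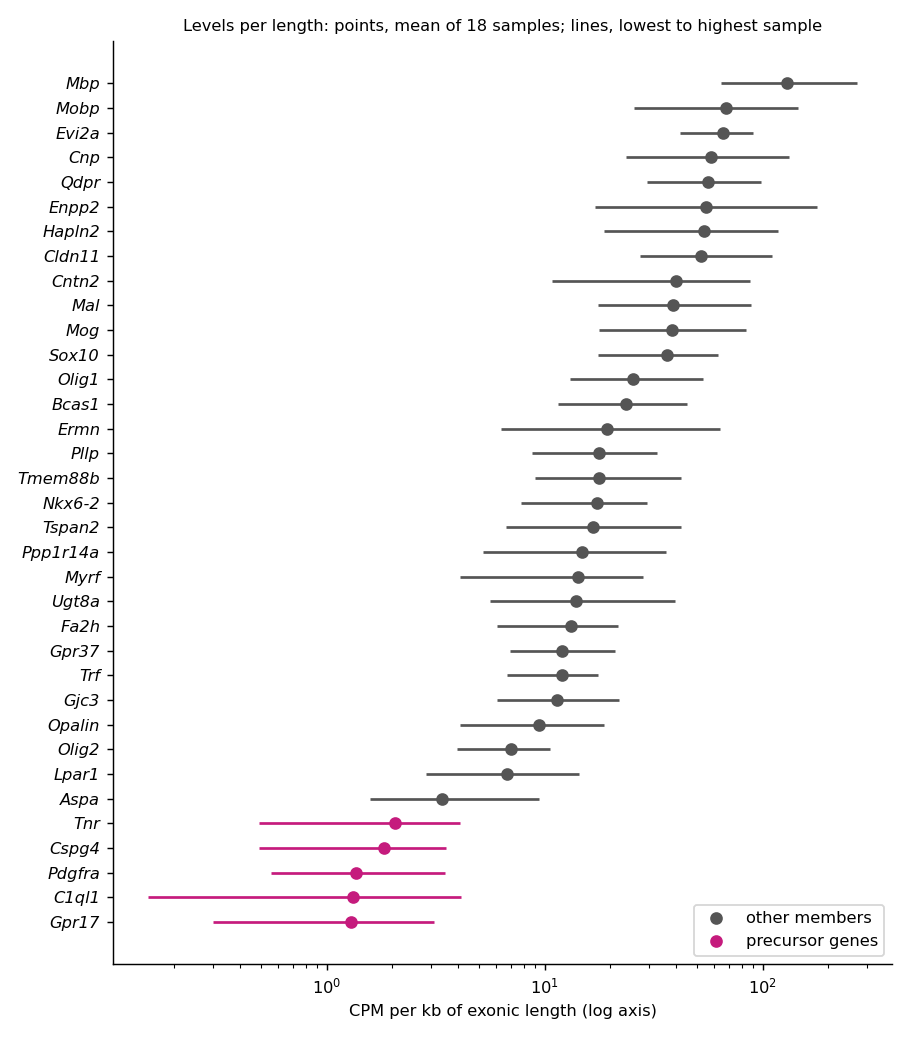
Level of each member per kilobase of exonic length on a log axis; points are means over 18 samples and lines run from the lowest to the highest sample. The precursor genes (pink) lie lowest, at means of 1.29 to 2.05 CPM per kb, and Mbp lies highest at 128.

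Sequence before the start site is shown for the members with the smallest p values below, Mobp and Pdgfra in Q175 versus WT and Ppp1r14a in Q175;Tyrobp-KO versus Q175, and for Mog, a myelin gene whose level did not follow that of Mobp. Each is 200 bases long, from 250 to 51 bases before the RefSeq start, 5′ to 3′ on the strand of the gene in build GRCm38.p6. They lie at chr9:120149492-120149691 for Mobp, chr5:75152001-75152200 for Pdgfra and chr7:29289070-29289269 for Ppp1r14a, all on the plus strand, and at chr17:37023449-37023648 on the minus strand for Mog. Capitals mark the letters ACAAAG, a core recognized by SOX factors, on either strand.
Mobp: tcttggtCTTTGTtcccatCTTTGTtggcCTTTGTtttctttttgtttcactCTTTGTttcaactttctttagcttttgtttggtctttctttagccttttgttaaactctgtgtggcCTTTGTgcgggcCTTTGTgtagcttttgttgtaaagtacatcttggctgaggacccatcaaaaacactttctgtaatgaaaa
Pdgfra: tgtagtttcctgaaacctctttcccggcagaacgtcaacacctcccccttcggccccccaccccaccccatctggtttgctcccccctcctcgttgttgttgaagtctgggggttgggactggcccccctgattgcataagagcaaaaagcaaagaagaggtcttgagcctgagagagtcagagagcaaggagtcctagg
Ppp1r14a: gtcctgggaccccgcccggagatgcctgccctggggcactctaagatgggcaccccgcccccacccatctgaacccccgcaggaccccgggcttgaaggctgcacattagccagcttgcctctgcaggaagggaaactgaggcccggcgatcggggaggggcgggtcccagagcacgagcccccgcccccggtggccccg
Mog: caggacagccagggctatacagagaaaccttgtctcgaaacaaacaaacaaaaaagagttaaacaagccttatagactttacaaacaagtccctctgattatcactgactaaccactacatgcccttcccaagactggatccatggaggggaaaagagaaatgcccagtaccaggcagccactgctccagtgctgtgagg
The Mobp stretch holds 6 such matches, all as CTTTGT on the strand shown, and the other 3 stretches hold none. Of 27025 genes searched over the same 200 bases, 13.6% had a match, and 1 gene had at least 6. Whether that gene is Mobp itself was not recorded. Start sites were at hand for 24 of the 35 members, of which 4 had a match (Mobp, Cnp, Opalin and Tnr). An E-box core (CAGCTG, which reads the same on both strands) was found in 2 of the 24 (Hapln2 and Aspa) and in 10.1% of all genes, and TATAAA on either strand in 1 (Aspa) and in 9.48%. The motif was chosen after the levels of Mobp were known. A match is a run of letters and was not tested for binding.

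The members did not rise and fall together from sample to sample, and 3 patterns stood out. Mbp had 600.5, 609, 556, 547 and 898 CPM in WT replicates 1, 2, 6, 7 and 8, and 616, 864 and 2203 CPM in Tyrobp-KO replicates 15, 19 and 20. It had 1343, 754, 859, 2290.1 and 1136 CPM in Q175 replicates 3, 4, 9, 14 and 17, and 1873, 563, 679, 1600.0 and 1593 CPM in Q175;Tyrobp-KO replicates 5, 11, 12, 13 and 16. The 5 highest values were in Tyrobp-KO replicate 20, Q175 replicate 14 and Q175;Tyrobp-KO replicates 5, 13 and 16, and 4 of the 5 WT samples were among the 6 lowest. Mog, the surface glycoprotein of the outermost myelin layer, had 74.4, 68.0, 48.0, 30.2 and 111 CPM in the same order of WT samples, and 63.4, 36.8 and 44.6 CPM in Tyrobp-KO. It had 63.3, 82.6, 51.2, 47.3 and 143 CPM in Q175, and 77.4, 46.4, 45.0, 44.2 and 94.9 CPM in Q175;Tyrobp-KO. Its highest values were in Q175 replicate 17 and WT replicate 8, and Tyrobp-KO replicate 20 and Q175 replicate 14, the libraries with the most Mbp, were among the 7 lowest. The ratio of Mbp to Mog accordingly ran from 7.95 in Q175 replicate 17 to 49.4 in Tyrobp-KO replicate 20, a 6.21-fold span, while the ratio of Mbp to Mobp ran from 1.29 to 3.24.

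Correlations of log2(CPM + 1) over the 18 samples were computed for 36 pairs of named members, with 2-sided permutation p values. Mbp and Mobp had Pearson's r = 0.89 (permutation p = 1e-05, the smallest 100000 permutations can give; adjusted p = 0.00018) and Spearman's rho = 0.83 (permutation p = 4e-05, adjusted p = 0.00084), with r = 0.83 without the 2 samples farthest on Mbp, 0.94 in females, 0.62 in males and 0.85 within genotypes. Sox10, the factor of the whole lineage, and Fa2h, the enzyme that hydroxylates fatty acids of galactolipids, formed another tight pair with r = 0.89 (permutation p = 1e-05, adjusted p = 0.00018) and rho = 0.83 (permutation p = 5e-05, adjusted p = 0.00084), 0.80 without the 2 farthest samples, 0.91 in females and 0.92 in males. Mbp and Sox10 had r = 0.23 (permutation p = 0.364, adjusted p = 0.419) and rho = 0.27 (permutation p = 0.290, adjusted p = 0.337), with -0.01 without the 2 farthest samples, 0.48 in females and -0.60 in males. Both scales share the library size of a sample, so these values describe how the transcripts moved together and not how they are controlled.

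A second family of 35 relations set each member against the level of the astrocyte markers (the mean of log2(CPM + 1) over 15 genes). Of the 35, 11 had a positive r with an adjusted permutation p under 0.05 (Mbp, Mobp, Bcas1, Qdpr, Lpar1, Olig1, Olig2, Pdgfra, Gpr17, Tnr and C1ql1), and the other 24 did not pass. Mbp had r = 0.94 (permutation p = 1e-05, adjusted p = 0.000175) and rho = 0.86 (permutation p = 1e-05, adjusted p = 0.00035), with 0.90 without the 2 farthest samples, 0.93 in females, 0.92 in males and 0.95 within genotypes. Pdgfra had r = 0.88 (permutation p = 1e-05, adjusted p = 0.000175) and rho = 0.85 (permutation p = 4e-05, adjusted p = 0.000467), with 0.90, 0.83, 0.79 and 0.86 in the same order. Mog had r = 0.05 (permutation p = 0.854, adjusted p = 0.906) and rho = -0.02 (permutation p = 0.954, adjusted p = 0.987), with 0.27 without the 2 farthest samples, -0.10 in females and -0.09 in males. The adjusted p of Spearman's rho for Olig1 was 0.0538. The correlations of Olig1, Olig2 and Tnr did not hold within males, where r was 0.18, 0.21 and 0.12.

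The third pattern was that of Enpp2, which encodes the secreted enzyme autotaxin and is expressed by oligodendrocytes and also by choroid plexus. Enpp2 had 274, 204, 175.3, 98.0 and 306 CPM in the 5 WT samples, 226, 128 and 223 in Tyrobp-KO, and 277, 391, 176, 157 and 305.5 in Q175;Tyrobp-KO, in the order used above. In Q175 it had 1025, 754, 153, 247.5 and 570 CPM, and replicates 3 and 4, the highest, were the libraries with the highest sums of choroid plexus markers. Ttr, the most abundant of these markers, reached 1365 CPM there and was at most 89.3 CPM in WT. The ratio of Enpp2 to Aspa ran from 9.05 to 68.0. The libraries with and without choroid plexus markers form separate clusters, so no correlation is given.

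**Figure D2:**
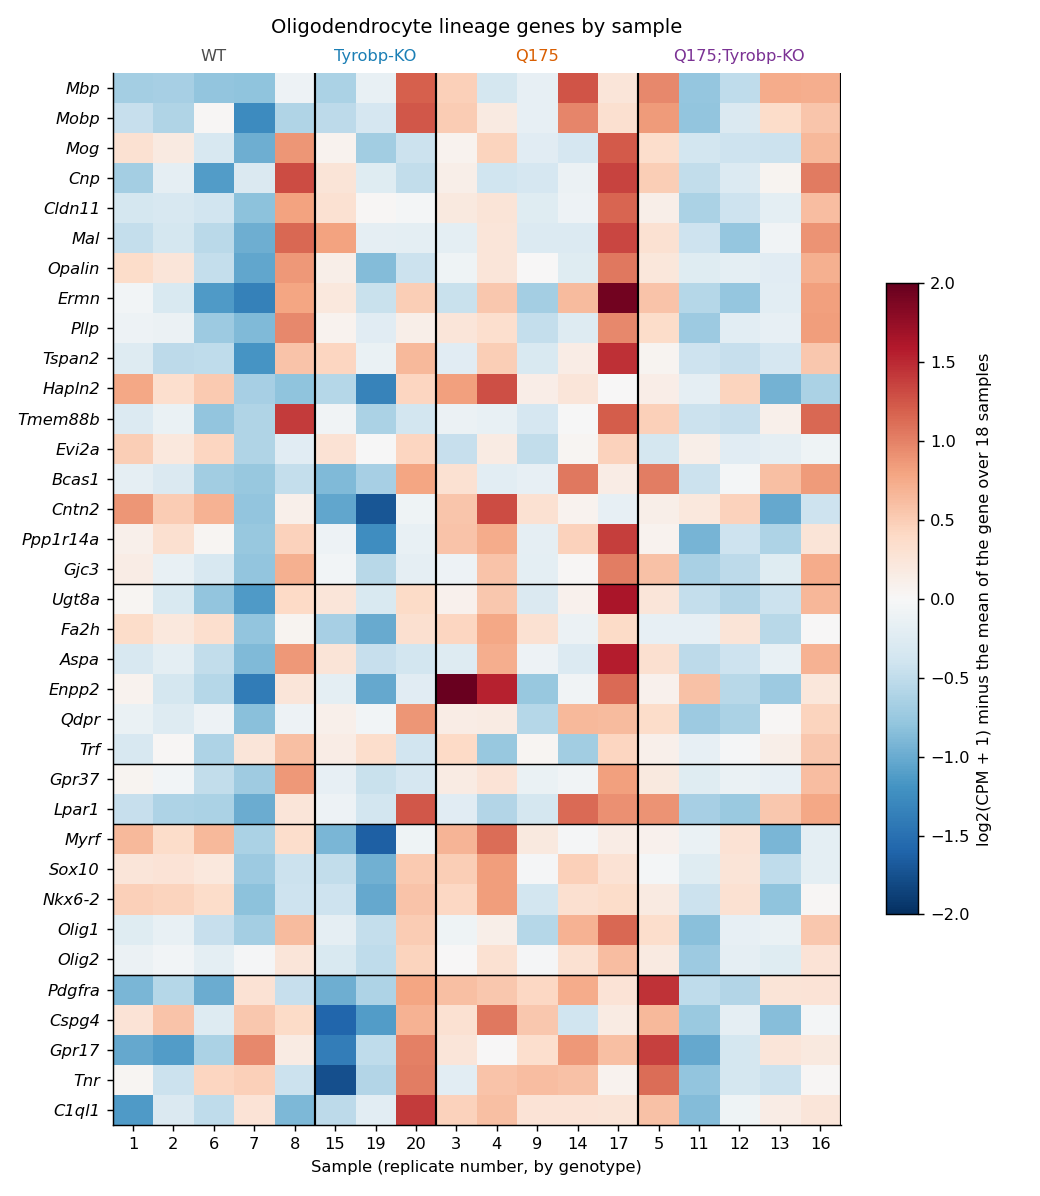
Level of each member (rows) in each of 18 samples (columns, replicate number by genotype) as log2(CPM + 1) minus the mean of the gene; lines separate genotypes and functional groups. Mbp and Mobp are highest in Tyrobp-KO replicate 20 and Q175 replicate 14, Mog, Cnp and Mal in WT replicate 8 and Q175 replicate 17, and Enpp2 in Q175 replicates 3 and 4.

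**Figure D3:**
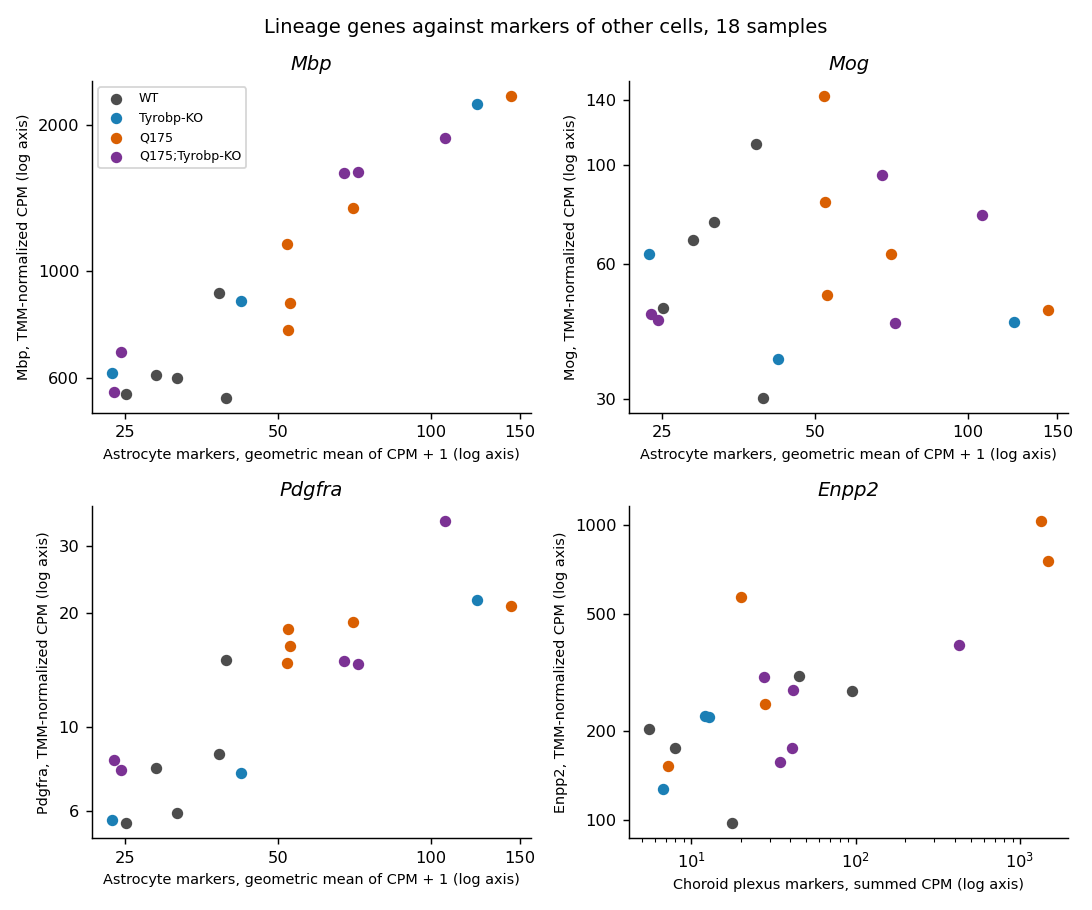
Mbp, Mog and Pdgfra against the level of 15 astrocyte markers and Enpp2 against the summed level of 12 choroid plexus markers, all on log axes, with 1 point per sample coloured by genotype. Mbp (r = 0.94) and Pdgfra (r = 0.88) rise with the astrocyte markers and Mog (r = 0.05) does not.

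Q175 versus WT asks which transcripts differ with the mutation in mice that have Tyrobp. No member was called by edgeR at an FDR of 0.1, where 0% of the 18266 genes tested were called, and the smallest adjusted p of a member was 0.345. The fold changes of 33 of the 35 members were above 0 all the same, with a median log2 fold change of 0.40 for the 30 oligodendrocyte genes and 0.67 for the 5 precursor genes, against -0.02 for all genes tested. An unadjusted p under 0.05 was reached by 10 members, all higher in Q175 (Mbp, Mobp, Bcas1, Ugt8a, Enpp2, Qdpr, Lpar1, Sox10, Pdgfra and C1ql1), where 5.47% of all genes reached it in that direction. With DESeq2, which called 1.28% of the genes, 2 members were called, Pdgfra (log2 fold change 1.07, adjusted p = 0.0294) and Mobp (0.95, adjusted p = 0.0625). None of the 35 had groups that did not overlap, against 0.788% of all genes with every Q175 sample above every WT sample.

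Pdgfra came nearest to separating the groups. It had 5.93, 7.78, 5.57, 15.002 and 8.49 CPM in WT and 18.9, 18.1, 16.3, 20.8 and 14.8 CPM in Q175. A single WT sample, replicate 7, lay above a single Q175 sample, replicate 17, and the other 4 WT samples were all below the Q175 samples. Its log2 fold change was 1.08 ± 0.26 (SE, edgeR, adjusted p = 0.345), 0.79 with sex as a term and 0.85 with an astrocyte and neuron score as a term. C1ql1 was at 0.224 to 2.25 CPM in WT and 2.21 to 3.05 CPM in Q175, a log2 fold change of 1.35 ± 0.49 (SE, edgeR adjusted p = 0.554) at very low counts. Gpr17, of the committed precursors, was at 2.08 to 11.9 CPM in WT and 5.71 to 11.1 CPM in Q175, with WT replicate 7 above all Q175 samples. Cspg4 and Tnr had log2 fold changes of 0.09 ± 0.25 and 0.33 ± 0.24 (SE). All 5 precursor genes were above 0.

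Among the myelin genes, Mbp had a log2 fold change of 1.02 ± 0.31 (SE, edgeR adjusted p = 0.387), from 642 ± 146 CPM (SD, n = 5) in WT to 1276 ± 612 (n = 5) in Q175. Mobp was at 305, 277, 430, 175.2 and 277 CPM in WT and at 598, 478, 376, 826 and 524 CPM in Q175, with WT replicate 6 above Q175 replicate 9 and all other WT samples below all Q175 samples. Its log2 fold change was 0.97 ± 0.27 (SE, adjusted p = 0.354). Bcas1, a protein of early myelinating cells, followed at 0.81 ± 0.25 (SE, adjusted p = 0.414), from 47.6 to 71.4 CPM in WT and 69.5 to 169 CPM in Q175. Mog, Cnp, Opalin and Tmem88b had log2 fold changes of 0.25, 0.25, 0.17 and 0.11, each smaller than its SE. Evi2a at -0.10 and Trf, the iron carrier transferrin, at -0.05 were the members below 0. Of the transcription factors, Sox10 had 125, 127, 122, 63.5 and 78.1 CPM in WT and 149, 189, 104, 148 and 129 CPM in Q175, with overlapping groups and a log2 fold change of 0.50 ± 0.23 (SE, edgeR adjusted p = 0.793). Myrf had 0.16 ± 0.27 and Nkx6-2, a homeodomain factor of the lineage, 0.29 ± 0.28.

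The astrocyte markers moved with this comparison: all 15 had fold changes above 0, 14 of them with an unadjusted p under 0.05, and their sums did not overlap between WT and Q175. Other markers above 0 were 12 of 12 for medium spiny neurons (median log2 fold change 0.61) and 9 of 10 for neurons in general (0.31). For choroid plexus they were 9 of 9 tested (3.81, all 9 under that threshold, against 5.47% of all genes). For macrophages of the brain borders they were 5 of 5 tested (1.05). Endothelial markers were above 0 for 3 of 10, mural and fibroblast markers for 5 of 9 tested and microglia markers for 6 of 20. With the mean of the astrocyte and neuron levels as a term, 14 members had an unadjusted p under 0.05, all higher, against 1.62% of all genes in that fit, of which 3 were among the 10 without it (Enpp2, Pdgfra and Ugt8a). Mbp then had a log2 fold change of 0.55 ± 0.39 (SE) and Mobp 0.60 ± 0.33, whereas Mog had 1.005 ± 0.38 and Cldn11, the claudin of myelin, 1.12 ± 0.37, with adjusted p values that rounded to 1 in this fit. With sex as a term, 2 members, Mobp and Pdgfra, had an unadjusted p under 0.05 (1.14% of all genes were higher at it). Without the 2 Q175 libraries with high choroid plexus markers the number was 7 (4.93% of all genes), and the log2 fold change of Enpp2 went from 1.39 ± 0.46 (SE) to 0.67 ± 0.44. Without WT replicate 8 it was 20 (4.78% of all genes), and without Q175 replicate 17 it was 6 (6.16%). Whether astrocytes, neurons, choroid plexus, border macrophages or sex have a part in the difference was not tested beyond these values.

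**Figure D4:**
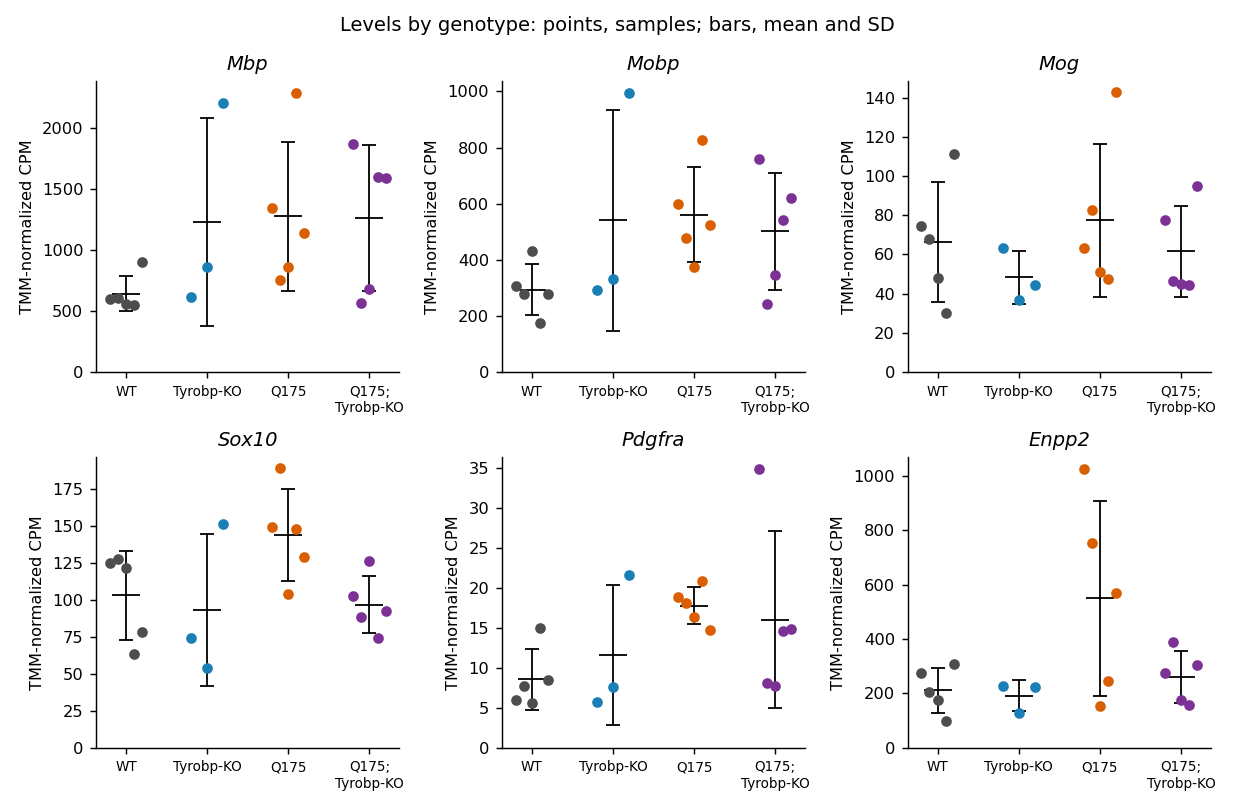
CPM of 6 members by genotype; points are samples, horizontal marks are means and bars are SD (n = 5, 3, 5 and 5). All groups overlap for each of the 6; Pdgfra overlaps between WT and Q175 by a single sample on each side, at 15.002 and 14.8 CPM.

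Q175;Tyrobp-KO versus Q175 asks what the deletion does in the presence of the mutation. It shares its Q175 samples with the comparison above, so values of the same gene in both are not independent. No member was called by edgeR, where 0.0111% of 18059 genes were, nor by DESeq2, which called 0.227%, and the smallest adjusted p of a member was 0.533. The fold changes of 32 members were below 0, with a median log2 fold change of -0.35 for the oligodendrocyte genes and -0.30 for the precursor genes, against -0.05 for all genes. Markers of other cell types lay below 0 as well, with 12 of 12 for medium spiny neurons (median -0.99, 6 with an unadjusted p under 0.05), 10 of 10 for neurons in general (median -0.31), 14 of 15 for astrocytes (median -0.35), 8 of 8 tested for mural cells and fibroblasts (median -0.82, 5 under the threshold) and 9 of 9 tested for choroid plexus (median -2.11), whereas 14 of 20 microglia markers lay above 0 (median 0.19). The summed medium spiny neuron markers were at 242 to 1512 CPM in Q175 and 241 to 908 CPM in Q175;Tyrobp-KO, with none at 0. The part of these cells in the lower values of the members was not tested beyond the alternatives given here. An unadjusted p under 0.05 was reached by 6 members, all lower in Q175;Tyrobp-KO (Ppp1r14a, Sox10, Fa2h, Hapln2, Myrf and Enpp2), where 4.56% of all genes reached it in that direction. This count was 1 without the 3 libraries with high choroid plexus markers (1.7% of all genes) and 3 with sex as a term (1.78%), which also left 19 members below 0 and 16 above, with a median of -0.05 for the oligodendrocyte genes. Without Q175 replicate 17 that median was -0.07.

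Ppp1r14a, an inhibitor of myosin phosphatase found in oligodendrocytes, had 27.5, 31.2, 16.1, 25.7 and 49.1 CPM in Q175 and 19.2, 9.11, 13.4, 11.6 and 22.2 CPM in Q175;Tyrobp-KO. Only Q175 replicate 9 lay within the range of the other group. Its log2 fold change was -0.99 ± 0.30 (SE, edgeR adjusted p = 0.533), and in Tyrobp-KO versus WT it was -0.47 ± 0.35 (SE, adjusted p = 0.937). Ppp1r14a lies 1.12 Mb from Tyrobp on chromosome 7, and a part of strain sequence linked to the deletion was not tested. Which cells the Ppp1r14a reads came from was not tested. All 8 mural cell and fibroblast markers tested were also lower in Q175;Tyrobp-KO than in Q175 (median log2 fold change -0.82). Sox10 was at 103, 88.6, 127, 74.0 and 92.3 CPM in Q175;Tyrobp-KO, where replicate 12 lay within the range of Q175 and the other 4 samples below it, and its log2 fold change was -0.57 ± 0.18 (SE, adjusted p = 0.533). Fa2h, at 34.6 to 65.4 CPM in Q175 and 25.5 to 45.1 in Q175;Tyrobp-KO, had -0.50 ± 0.19, and Myrf, at 108 to 241 and 58.0 to 135 CPM, had -0.61 ± 0.26. Mbp and Mobp, with log2 fold changes of -0.02 ± 0.38 and -0.16 ± 0.30, were nearer to 0 with wider errors, and their sign turned under several alternatives. Pdgfra had 34.8, 8.16, 7.69, 14.6 and 14.9 CPM in Q175;Tyrobp-KO, where replicate 5 exceeded all Q175 samples and replicates 11 and 12 lay below them all, and its log2 fold change was -0.15 ± 0.36.

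**Figure D5:**
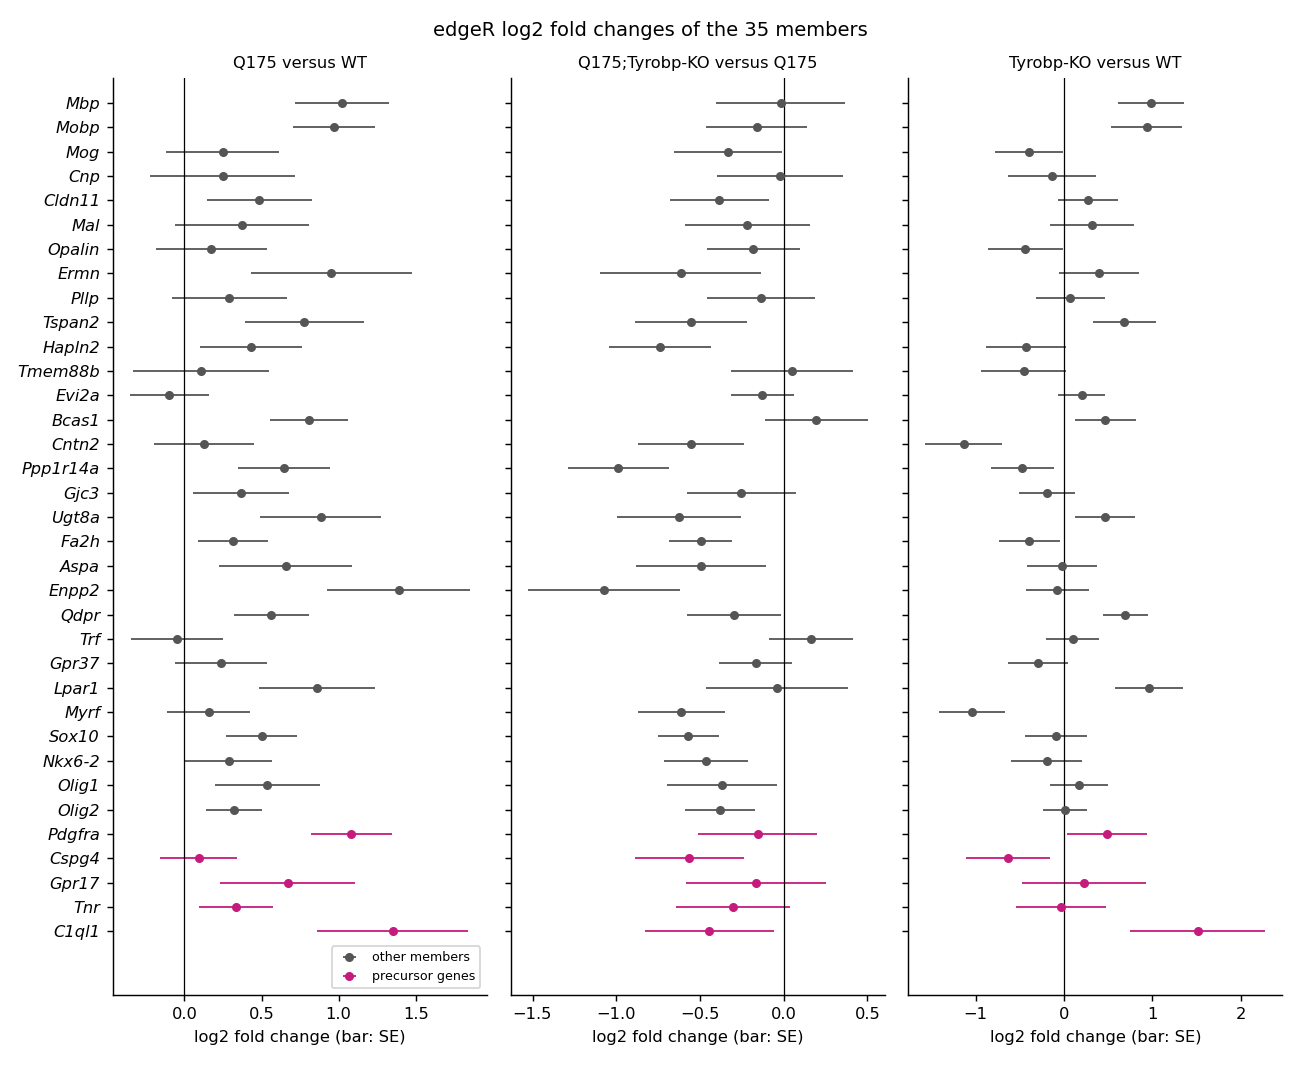
edgeR log2 fold change (points) and SE (bars) of the 35 members in 3 comparisons; the vertical line marks 0 and precursor genes are pink. In Q175 versus WT 33 members lie above 0, in Q175;Tyrobp-KO versus Q175 32 lie below 0, and in Tyrobp-KO versus WT 18 lie above and 17 below.

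Tyrobp-KO versus WT asks what the deletion does without the mutation, with 3 samples against 5 and with WT samples shared with the first comparison. No member was called by edgeR, where 0.0222% of 18017 genes were, nor by DESeq2, which called 0.932%. The members were spread on both sides of 0, with 18 above and 17 below. An unadjusted p under 0.05 was reached by 4 members that were higher in Tyrobp-KO (Mbp, Mobp, Qdpr and Lpar1, against 3.66% of all genes) and 2 that were lower (Cntn2 and Myrf, against 3.15%). Qdpr was at 102, 91.4 and 176 CPM in Tyrobp-KO and at 86.9, 79.5, 88.6, 52.8 and 88.9 CPM in WT, and was the single member whose groups did not overlap, where 1.2% of all genes had every Tyrobp-KO sample above every WT sample. Its log2 fold change was 0.69 ± 0.25 (SE, edgeR adjusted p = 0.610). Cntn2, a cell adhesion molecule at the edge of the node of Ranvier, was at 161, 99.9 and 310 CPM in Tyrobp-KO and at 612, 471, 537, 190 and 356 CPM in WT, with a log2 fold change of -1.13 ± 0.43 (SE, edgeR adjusted p = 0.625). Myrf was at 34.9 to 104 CPM in Tyrobp-KO and 70.7 to 174 CPM in WT, with -1.04 ± 0.38 (SE, adjusted p = 0.610). Genes of myelin thus lay on both sides, with Mbp at 0.98 ± 0.38 and Mog at -0.40 ± 0.38 (SE).

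A single library, Tyrobp-KO replicate 20, set the level of the precursor genes in this group. Their sum was 20.3, 36.7 and 122 CPM in replicates 15, 19 and 20, and the astrocyte marker level was highest in the same library. The median log2 fold change of the precursor genes was 0.22, and -0.90 without that library. Without it no member had an unadjusted p under 0.05 in the higher direction, and 5 did in the lower (Cntn2, Cspg4, Fa2h, Myrf and Tnr). Of all genes, 1.88% were higher and 9.59% lower at that threshold without it. Without WT replicate 8 the higher members numbered 8 (3.07% of all genes), and with sex as a term none passed in either direction, against 1.08% of all genes higher and 2.33% lower. The astrocyte markers were above 0 for 15 of 15 in this comparison. With the astrocyte and neuron score as a term, none of the 4 higher members passed (2.47% of all genes did), and 4 members were lower (Cntn2, Cspg4, Myrf and Tnr, against 9.42% of all genes). Mbp then had a log2 fold change of 0.48 ± 0.33 (SE) and Mobp 0.38 ± 0.31.

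In Q175;Tyrobp-KO versus Tyrobp-KO, 23 members were above 0 and 12 below, and none was called by edgeR, where 0% of 17723 genes were, nor by DESeq2, which called 3.84%. Evi2a alone had an unadjusted p under 0.05, with a log2 fold change of -0.41 ± 0.14 (SE, edgeR adjusted p = 0.311), where 8.24% of all genes were lower at that threshold and 4.98% higher. Without Tyrobp-KO replicate 20, 6 members had an unadjusted p under 0.05, all higher (Bcas1, Cntn2, Cspg4, Fa2h, Myrf and Sox10), against 8.76% of all genes. With sex as a term, 6 others were higher (Gjc3, Gpr37, Mog, Opalin, Ppp1r14a and Tmem88b), against 4.78% of all genes. With the astrocyte and neuron score as a term, edgeR called Bcas1 (0.70, adjusted p = 0.0836) and 3.94% of all genes. For the interaction of mutation and deletion, fitted over all 4 groups, none was called by either tool, where edgeR called 0% of 18613 genes and DESeq2 0.0107%. The term was below 0 for 25 members, that is, the difference of Q175;Tyrobp-KO from Tyrobp-KO was less positive than that of Q175 from WT. This majority turned with sex as a term, where 16 were below 0 and 19 above and no member was lower at an unadjusted p under 0.05 (0.317% of all genes were), and it was 18 and 17 without Tyrobp-KO replicate 20 and 20 and 15 with the score. Tspan2, a tetraspanin of myelin, Qdpr and C1ql1 had an unadjusted p under 0.05, against 3.02% of all genes in that direction, with values of -1.18 ± 0.53, -0.93 ± 0.41 and -1.92 ± 0.86 (SE, edgeR adjusted p = 0.716 for each). Without Q175 replicate 17 this count was 1 (C1ql1, against 3.03% of all genes), and without Tyrobp-KO replicate 20 it was 0 (0.748%).

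Other genes of the lineage were counted in the same libraries, so their values are not independent of those of the members. Of 25 further oligodendrocyte genes, 24 had fold changes above 0 in Q175 versus WT, with a median log2 fold change of 0.32. An unadjusted p under 0.05 was reached by 4, all higher (Plekhb1, Car2, Cdh19 and Cryab), against 5.47% of all genes. Plekhb1, a membrane protein whose mRNA is abundant in myelin, was at 71.1 to 121 CPM in WT and 100.3 to 534 CPM in Q175, with 1.28 ± 0.40 (SE, edgeR adjusted p = 0.425). In Q175;Tyrobp-KO versus Q175, 22 of the 25 were below 0, with 2 under the threshold (Gsn and Prr5l), against 4.56% of all genes. In Tyrobp-KO versus WT 15 were below 0. Under the threshold, Mag and Plxnb3 were lower there (3.15% of all genes) and Plekhb1 higher (3.66%). Of 10 further precursor genes, 9 were above 0 in Q175 versus WT. An unadjusted p under 0.05 was reached by 3, all higher (Neu4, Lhfpl3 and Cacng4), against the same 5.47% of all genes. Neu4, a sialidase of precursors, was at 0.727 to 3.08 CPM in WT and 3.64 to 5.41 CPM in Q175, with 1.24 ± 0.35 (SE, edgeR adjusted p = 0.365). Its groups did not overlap, where 0.788% of all genes had every Q175 sample above every WT sample. DESeq2 called Neu4 (adjusted p = 0.0599) and 1.28% of all genes.

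Libraries were not directional, so a read from either strand counts alike where genes overlap. Trf shares 63.5% of its exonic bases with the gene model Gm20425, which was listed at 0 in all samples, and Pllp, plasmolipin, shares 54.2% with Gm45767 on the opposite strand, which had at most 2.37 CPM. Reads that fall in both models may have been left out or split, so the levels of Trf and Pllp are uncertain. Bcas1, Nkx6-2, Qdpr and Evi2a shared 12.6 to 19.2% of their exonic bases with other models, and every other member less.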

How the data were processed

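Per the labels and the methods, RNA of bead-purified striatal microglia was made into libraries with a SMART-Seq v4 Ultra Low Input kit, reads were aligned with STAR, and the authors counted them per gene with featureCounts and deposited raw counts. The methods give build GRCm38 where the processing notes list GRCh38, and gene models matched GENCODE M21 for all 55536 genes. The labels give 2 striata per sample and the methods 1, so p-values measure the spread between these samples. In the table, 2 columns that match no sample were not used. Among genes over 50 counts, the highest share with identical counts in any pair of samples was 0.692%.

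Genes that reached 1 CPM in any sample entered the test with edgeR 4.0.16 (TMM scaling, quasi-likelihood test, Benjamini-Hochberg FDR of 0.1) on the samples of each comparison, and the interaction over all 4 groups. DESeq2 1.42.0 (R 4.3.3) was an alternative, beside other scalings and filters, sex or an astrocyte and neuron score as a term, and each sample left out. The code was tested on simulated data. Unadjusted p values are from edgeR and given for description. Median depth was 18342645 counts, and counting error is largest for C1ql1. Genes named by rule were the highest per length of each functional group and the 3 smallest p values in Q175 versus WT and in Q175;Tyrobp-KO versus Q175, and all others were named after their values were seen. The members and lists were chosen with earlier results of these data known. Promoter sequences are from RefSeq.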

Additional observations from a re-analysis of the deposited data

Results flagged for a closer look

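In 18 of 111 groups of 5 samples, the gap of a sample to its nearest neighbour exceeded Dixon's 95% limit for the range. Independent, normally distributed values exceed it in about 1 in 20 groups. The genes share their libraries, so the 18 cannot be set against that rate. Tyrobp-KO, with 3 samples, was not examined. Most of these values belong to 2 libraries. WT replicate 8 stood above the other WT samples for Mbp (898 CPM), Cnp (465), Cldn11 (159.7), Mal (216), Pllp (67.9), Tmem88b (147) and Aspa (33.9). Q175 replicate 17 stood above the other Q175 samples for Cnp (478 CPM), Cldn11 (207), Mal (246), Opalin (55.0), Ermn (230.4), Tmem88b (128) and Ugt8a (179).

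WT replicate 7 stood below the other WT samples for Qdpr (52.8 CPM) and above them for the sum of the 5 precursor genes (91.7 CPM). Q175;Tyrobp-KO replicate 5 stood above its group for Pdgfra (34.8 CPM) and Tnr (52.4 CPM).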

How the results depend on the processing

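No paired analysis was made, because the replicate numbers run on across the groups and mark no pairs. Of the values that answer a comparison, 318 were counted as the same under an alternative and 7 as moved. Not every change of sign near 0 was counted as moved. The median log2 fold change of the 30 oligodendrocyte genes in Tyrobp-KO versus WT was -0.008, and -0.19 to 0.22 with a sample left out. In Q175;Tyrobp-KO versus Tyrobp-KO it was 0.07, and -0.16 to 0.35 with a sample left out. DESeq2 called 2 members in Q175 versus WT where edgeR called 0, and the astrocyte and neuron score as a term gave 1 called member in Q175;Tyrobp-KO versus Tyrobp-KO. The median log2 fold change of the 5 precursor genes moved most. In Tyrobp-KO versus WT it was 0.22, -0.76 with the score, and -0.90 to 0.75 with a sample left out. In Q175;Tyrobp-KO versus Tyrobp-KO it was 0.19, and -0.27 to 1.25 with a sample left out. For the interaction it was -0.34, 0.59 with the score, and -0.92 to 0.75 with a sample left out.

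Of the single genes, Tnr in Q175 versus WT turned to -0.00059 with the score. In Q175;Tyrobp-KO versus Q175, Mbp turned to 0.13 with total count scaling (which moved the median of all genes from -0.05 to 0.08), 0.26 with sex and 0.28 with the score, and ran from -0.23 to 0.30 with a sample left out. Mobp turned to 0.12 with sex and 0.046 with the score, with a range of -0.39 to 0.015. Pdgfra turned to 0.024 with sex and 0.023 without the libraries with high choroid plexus markers, an alternative chosen after seeing the data, with a range of -0.67 to 0.024. Gpr37 turned to 0.037 with sex, with a range of -0.34 to 0.022, and Qdpr to 0.048 with sex. The cause was not tested. Low counts limit C1ql1 and Gpr17.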

Other observations

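Cholesterol is the main lipid of myelin, and 16 genes of its synthesis were followed. In Tyrobp-KO versus WT, 14 of the 16 had fold changes above 0, with Hmgcs1, the synthase before the rate-limiting step, at a log2 fold change of 1.30 and Sqle, squalene epoxidase, at 0.55, neither called by edgeR (adjusted p = 0.565 and 0.715). In Q175 versus WT 14 of 16 were above 0 as well, with Hmgcs1 at 0.76 (edgeR adjusted p = 0.609). Both comparisons share their WT samples. The sum of the 16 genes was 271, 272 and 564 CPM in Tyrobp-KO replicates 15, 19 and 20 and 237 to 292 CPM in WT, so replicate 20 alone lay above WT. Without it 8 of the 16 were above 0 and 8 below in Tyrobp-KO versus WT, with Hmgcs1 at 0.46 (edgeR adjusted p = 0.486).

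Bmp4, a ligand that is expressed by committed precursors, was at 0.593 to 1.46 CPM in WT and at 0 to 0.135 CPM in Tyrobp-KO. In Q175;Tyrobp-KO, which also lacks Tyrobp, Bmp4 was at 0.239 to 2.07 CPM, against 0.557 to 1.79 CPM in Q175. The low values were thus not shared by both groups without Tyrobp. DESeq2 called Bmp4 (adjusted p = 0.0112), as it did 0.932% of all genes in Tyrobp-KO versus WT. Bmp4 entered this test only through WT samples that reached 1 CPM, so the call is given for description only. With edgeR, which called 0.0222%, Bmp4 was not called (adjusted p = 0.565). The counts were low in all samples, and it was named after its values were seen.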
